A study of Mus musculus with 16 samples.

Results

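The olfactory receptors of mouse chromosome 7 were followed here through the contacts of their promoters. Members were the captured promoter fragments (baits) on chromosome 7 that carry the name of an olfactory receptor gene (Olfr and a number, pseudogenes left out). There were 178 such baits among 20017 in the whole table, which holds 783 receptor baits in all. All 178 symbols were found in RefSeq on GRCm38.p6, and 177 baits overlapped the gene they are named for. The rule for members used name and position only. A bait is in the table only if it has a listed contact, however, so measured values decide which baits are present. Receptor fragments such as Olfr478 and Olfr679 appear only as partners of other baits and are not among the members.

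Contacts were measured by promoter-capture Hi-C, in which cross-linked DNA is cut with HindIII, ligated and enriched for promoter fragments. The cells were mouse epiblast-like cells (EpiLC) at day 2 and the embryonic stem cells (ESC) they came from, kept in 2i and Lif at day 0. Each stage was measured in DNMT_KO, which lacks Dnmt1 as well as Dnmt3a and Dnmt3b, in its parent DNMT_WT, in TET_KO, without Tet1 and also without Tet2 and Tet3, and in its parent TET_WT. Dnmt enzymes add and keep DNA methylation, and Tet enzymes oxidise it as a step towards its removal. The labels list 2 replicates for each of the 8 groups, 16 samples in all, but the values come as 1 column per group. How, if at all, the replicates were combined, the sources used here do not say. A column therefore has no SD and its depth is unknown, and the 4 lines stand as replicates of a stage. Since each knock-out derives from its wild type, the 4 lines are not fully independent. The scores hold no check of the deleted genes.

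Olfactory receptors are odorant-binding G-protein-coupled receptors. They lie in tandem clusters, and each olfactory neuron expresses a single receptor allele. The class I receptors, which resemble those of fish, form a single large cluster on mouse chromosome 7, interrupted by the beta-globin genes. In olfactory neurons, receptor clusters are heterochromatic and contact enhancers and each other, and Lhx2, Ebf and Ldb1 take part in this. The cells measured here are no olfactory neurons, and contact scores do not show whether a receptor is expressed.

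A gap of over 1 Mb between neighbouring receptor baits divided the members into 7 clusters. The largest, from Olfr543 to Olfr692 (chr7:102474232-105371538, GRCm38), held 105 baits and is the class I cluster. The next, from Olfr693 to Olfr518 (chr7:106676972-108881975), held 41 baits. The third in size, from Olfr522 to Olfr541 (chr7:140160996-140705150), held 11 baits, and the one nearest to the start of the chromosome, from Olfr1344 to Olfr1350 (chr7:6434666-6570893), held 8. The others held 9, 2 and 2 baits, at chr7:86255655-86690447, chr7:84851893-84915940 and chr7:99734122-99770019.

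The values are CHiCAGO scores, which measure how far the reads of a contact exceed those expected at its distance, and 5 is the usual calling threshold. Every listed contact reached 5 in at least 1 column. The members had 1716 listed contacts, of which 380 led to another receptor bait, 135 to another promoter, 1194 to a fragment without a captured promoter and 7 to another chromosome. A member had between 1 and 61 contacts with a median of 7, against 8 in the whole series. The median contact distance was 409.977 kb for the members, against 274.635 kb in the whole series. A single-column contact was common: 986 contacts of the members (57.5%) reached 5 in 1 column only, against 44.0% of the whole table, and 55 (3.21%) reached it in all 8, against 6.70%.

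The contacts among receptor baits all stayed within a cluster. The 380 listings stood for 374 pairs, since 6 pairs were listed from both ends, and 0 pairs joined different clusters. Most pairs are thus listed under 1 of their baits only (9.28% of bait to bait listings in the whole table had their reverse listed), so a bait with few listed contacts can still be a frequent other end. The bait of Olfr566 took part in 3 of the 5 receptor contacts with the highest lowest score over the 8 columns. Its contact with Olfr570, 40.3 kb away, scored 20.3 (DNMT_KO), 24.1 (DNMT_WT), 14.4 (TET_KO) and 15.7 (TET_WT) in EpiLC, against 25.7, 21.9, 19.96 and 17.8 in ESC in the same line order. Its contact with Olfr556, 188.8 kb away, scored 26.7, 20.7, 19.7 and 12.2 in EpiLC, against 38.5, 23.0, 11.4 and 16.4 in ESC. Both contacts were called in all 8 columns, and their EpiLC and ESC scores overlapped.

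The other members of the strongest 5 were Olfr583 with Olfr556 (381.3 kb, lowest score 10.1), Olfr685 with Olfr684 (24.7 kb, 9.32) and Olfr566 with Olfr561 (85.5 kb, 9.03). None of the 5 passed the stage test. Counted as other ends, a view chosen after the values were seen, Olfr556 was listed by 32 receptor baits, Olfr553 by 24, Olfr633 by 23, Olfr570 by 22 and Olfr652 by 19, and Olfr493 of the second cluster by 17. The widest contact seen in at least 4 columns joined Olfr69 and Olfr553 over 1153.8 kb. It scored 11.1 (DNMT_KO), 6.84 (DNMT_WT), 2.87 (TET_KO) and 4.82 (TET_WT) in EpiLC, against 7.36, 5.12, 7.25 and 7.46 in ESC. It reached 5 in 6 columns, and TET_KO and TET_WT EpiLC were the columns below it.

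**Figure D1:**
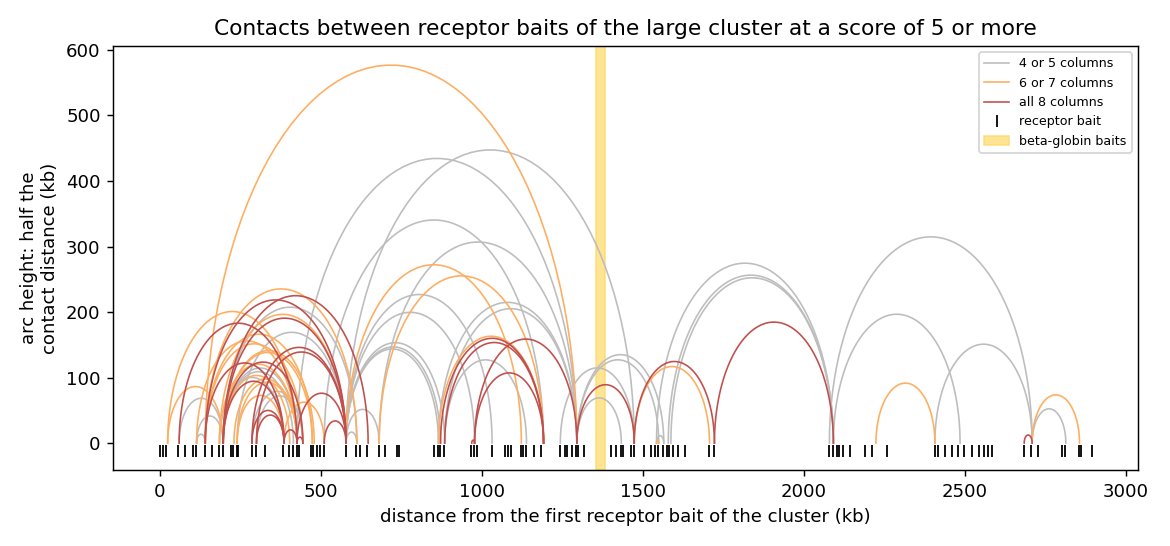
Arcs join receptor baits of the class I cluster whose contact reached a score of 5 in 4 or more columns, by distance in kb from the first receptor bait, with the height of an arc as the radius of its circle in kb. Of 83 arcs, 24 were called in all 8 columns (red), and 6 arcs span the beta-globin baits (yellow band).

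In the comparison of stages, receptor promoters had lower contact scores in EpiLC than in ESC by a small amount and in most members, but few passed the test. The value of a promoter was the mean inverse hyperbolic sine (asinh) of the scores of its contacts after quantile normalisation, and 150 members with at least 3 contacts scored in all columns were tested (28 were not). 9 of the 150 (6%) fell, against 5.14% of all promoters tested, and 0 rose, against 3.73%. The share that fell is near the background, and 49 of the 150 (32.7%) had an unadjusted p under 0.05, against 27.6% of all promoters. The median difference was -0.17 over the members and -0.01 over all promoters tested. It was -0.31 for the receptor baits of chromosome 2, -0.19 for those of the other chromosomes and 0.07 for the other baits of chromosome 7, so a negative median was not particular to chromosome 7.

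Most members shared the direction. The difference was below 0 in 119 of 150 members (79.3%), against 51.8% of all promoters. All 4 lines were lower in EpiLC in 46 members (30.7%), against 18.3% of all promoters. All 4 EpiLC values lay below all 4 ESC values in 18 members (12%), against 7.48% of all promoters, and above them in 2 (1.33%), against 6.08%. By line, the median of the members' differences was -0.23 in DNMT_KO, -0.07 in DNMT_WT, -0.22 in TET_KO and -0.22 in TET_WT. The listing of contacts bears on these values, since a contact is listed only where some column reaches 5. Contacts called in 1 column only numbered 94, 107, 121 and 62 in EpiLC, against 248, 105, 136 and 113 in ESC (same line order). A member listed mainly through ESC columns is thereby set towards a lower EpiLC value.

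**Figure D2:**
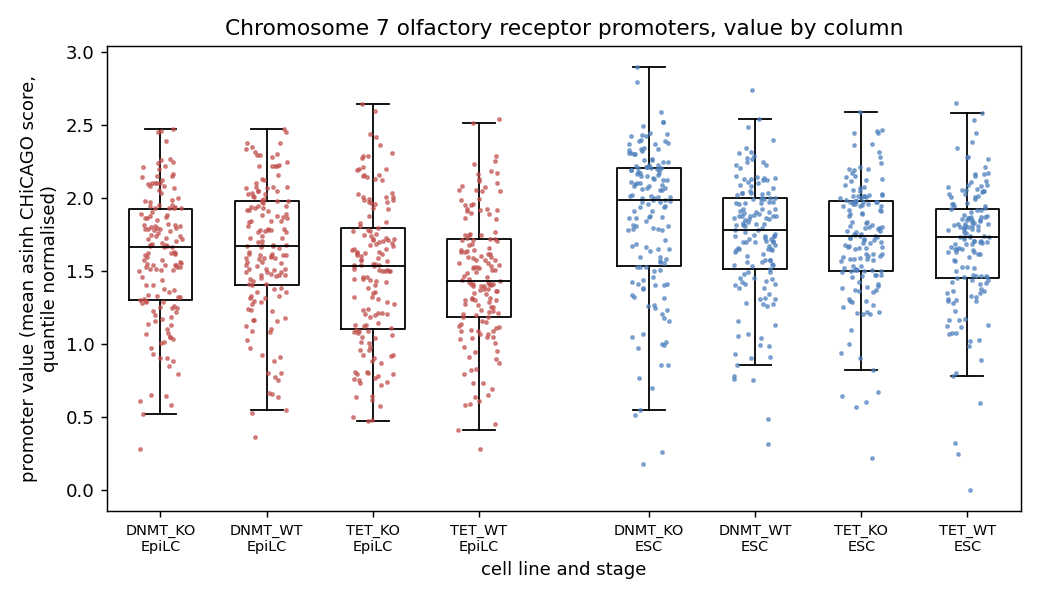
Each point is 1 of the 150 tested receptor promoters, with its value (mean asinh score, quantile normalised) in each cell line and stage; boxes show medians and quartiles, and whiskers reach the farthest point within 1.5 box lengths. Medians were 1.67, 1.67, 1.54 and 1.43 in EpiLC (left), against 1.99, 1.78, 1.74 and 1.73 in ESC (right), in the line order DNMT_KO, DNMT_WT, TET_KO, TET_WT.

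The 9 promoters that fell were Olfr659, Olfr645, Olfr653, Olfr661, Olfr654, Olfr667, Olfr690 and Olfr692 of the class I cluster, and Olfr493 of the second cluster. Windows of RefSeq promoter sequence (GRCm38.p6, 250 bases before to 50 after the annotated start) are shown for 4 of them, since these promoters moved together and differ in the homeodomain motif TAATNA. Capitals mark TAATNA on either strand. Of these windows Olfr659 (chr7:104670454-104670753, plus strand) has 5 matches, Olfr692 (chr7:105368078-105368377, plus strand) 3, Olfr493 (chr7:108346930-108347229, minus strand) 1 and Olfr653 (chr7:104579374-104579673, plus strand) 0, with overlapping matches counted separately.
Olfr659: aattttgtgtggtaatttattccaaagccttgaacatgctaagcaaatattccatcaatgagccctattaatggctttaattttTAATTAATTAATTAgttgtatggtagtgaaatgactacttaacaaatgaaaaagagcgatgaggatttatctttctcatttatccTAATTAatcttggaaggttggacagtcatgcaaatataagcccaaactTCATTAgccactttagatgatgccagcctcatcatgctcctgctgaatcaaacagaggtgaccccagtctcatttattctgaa
Olfr692: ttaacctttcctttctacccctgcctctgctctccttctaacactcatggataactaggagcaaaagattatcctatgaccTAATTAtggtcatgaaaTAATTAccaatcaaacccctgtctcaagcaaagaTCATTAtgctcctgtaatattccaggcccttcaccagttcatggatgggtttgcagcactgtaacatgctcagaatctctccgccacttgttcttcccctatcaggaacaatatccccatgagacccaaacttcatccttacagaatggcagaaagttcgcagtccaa
Olfr493: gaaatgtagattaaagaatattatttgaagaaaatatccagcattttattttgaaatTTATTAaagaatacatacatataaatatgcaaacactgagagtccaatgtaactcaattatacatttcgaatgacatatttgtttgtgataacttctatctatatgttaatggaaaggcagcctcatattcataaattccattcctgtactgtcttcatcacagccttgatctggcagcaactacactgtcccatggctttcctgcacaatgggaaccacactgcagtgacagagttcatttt
Olfr653: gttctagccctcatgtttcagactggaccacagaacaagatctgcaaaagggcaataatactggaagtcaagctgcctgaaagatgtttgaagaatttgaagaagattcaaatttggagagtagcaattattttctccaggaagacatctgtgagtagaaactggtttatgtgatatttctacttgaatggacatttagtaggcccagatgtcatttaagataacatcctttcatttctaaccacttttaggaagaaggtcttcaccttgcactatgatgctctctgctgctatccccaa

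A window was given for 157 of the 178 members. TAATNA stood in 94 of them (59.9%), in 65.8% of 945 windows of all olfactory receptors and in 26.5% of all 32851 windows. It stood in 6 of the 8 windows available for the promoters that fell. The Olf/Ebf motif stood in 1 of 157 (0.637%), against 0.904% of all windows. Both strands were searched, and a match is a description of letters, not of binding. Many receptor genes are annotated from their coding start, so such a window need not hold the transcription start.

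Olfr659 had the largest fall. Its value was 0.931 (DNMT_KO), 1.59 (DNMT_WT), 0.637 (TET_KO) and 1.05 (TET_WT) in EpiLC, against 2.10, 1.70, 2.17 and 1.74 in ESC in the same order. The groups did not overlap, although DNMT_WT moved little. The difference was -0.88 ± 0.22 (SE, limma adjusted p = 0.026), over 4 listed contacts. All 4 were listed through ESC columns alone, which favours a low EpiLC value, so the test is no independent support for a fall.

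Olfr653 rested on 26 contacts, the most among those that fell. Its value was 1.28 (DNMT_KO), 1.33 (DNMT_WT), 0.881 (TET_KO) and 1.21 (TET_WT) in EpiLC, against 2.39, 1.88, 1.62 and 1.81 in ESC. All 4 EpiLC values lay below all 4 ESC values. The difference was -0.75 ± 0.18 (SE, limma adjusted p = 0.021). In whole contacts, 2, 0, 0 and 2 of its contacts reached 5 in EpiLC, against 19, 5, 6 and 5 in ESC. Since a contact is listed only where some column reaches 5, this list rests mainly on ESC columns. The counts are therefore no separate support for a fall.

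Its neighbour Olfr654, on the next fragment, had 24 contacts. Its value was 1.37 (DNMT_KO), 1.51 (DNMT_WT), 1.09 (TET_KO) and 1.12 (TET_WT) in EpiLC, against 2.37, 2.03, 1.498 and 1.65 in ESC. Here the groups overlapped, since TET_KO ESC lay below DNMT_WT EpiLC, and each line was lower in EpiLC (difference -0.62 ± 0.17 SE, limma adjusted p = 0.038). It did not pass without scaling (limma adjusted p = 0.069), with columns divided by their mean (0.054) or with missing scores set to 0 (0.055). Neighbouring fragments share much of their surroundings, so the pair is not 2 independent observations.

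Olfr645 had 1.25 (DNMT_KO), 1.43 (DNMT_WT), 0.738 (TET_KO) and 1.05 (TET_WT) in EpiLC, against 2.39, 1.90, 1.43 and 1.82 in ESC. Olfr661 had 1.93, 1.45, 0.645 and 1.36 in EpiLC, against 2.80, 1.82, 1.74 and 1.70 in ESC. In both the groups overlapped and every line was lower in EpiLC, by -0.77 ± 0.19 for Olfr645 and -0.67 ± 0.17 for Olfr661 (SE, limma adjusted p = 0.023 and 0.026). With missing scores set to 0, neither passed (limma adjusted p = 0.11 and 0.10).

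Olfr493 in the second cluster had 1.54 (DNMT_KO), 1.31 (DNMT_WT), 1.08 (TET_KO) and 1.52 (TET_WT) in EpiLC, against 2.23, 2.12, 1.81 and 1.80 in ESC, without overlap (-0.63 ± 0.16 SE, limma adjusted p = 0.026). Olfr692, the last receptor bait of the class I cluster, had 1.78, 1.89, 1.57 and 1.57 in EpiLC, against 2.31, 2.03, 2.05 and 2.28 in ESC, also without overlap. Of the 13 contacts of Olfr692, 0 reached 5 in any EpiLC column, against 7, 1, 2 and 7 in ESC. Since a contact is listed only where some column reaches 5, these 13 were listed through ESC columns alone. The same holds for the contacts of Olfr659 and Olfr690. Such a listing favours a low EpiLC value, so neither the counts nor the tests of these promoters are separate support for a fall. Olfr667 and Olfr690, with 3 and 4 contacts, differed by -0.60 ± 0.15 and -0.54 ± 0.15 (SE), and neither overlapped. Olfr690 did not pass without scaling, without contacts between receptor baits or with missing scores set to 0 (limma adjusted p = 0.056, 0.064 and 0.052).

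**Figure D3:**
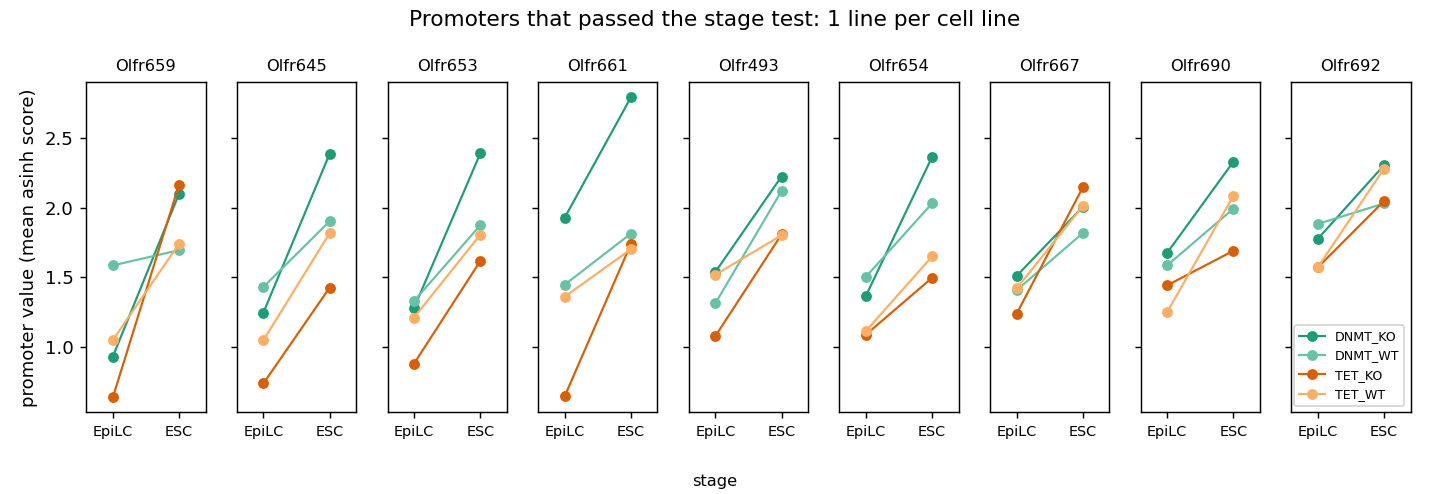
Promoter values (mean asinh score) of the 9 receptors past the threshold, EpiLC left and ESC right, with 1 connected pair of points for each of the 4 cell lines. Each of the 36 connected pairs is lower in EpiLC.

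The calls depended on which lines were used. The fit without DNMT_KO gave 0 promoters that fell, without TET_KO 1, without TET_WT 4 and without DNMT_WT 7. Over all promoters the same fits gave 13, 229, 266 and 342, against 806 with all lines. These were not all promoters described above. Without TET_KO, none of those described above passed, so the 1 counted there was another promoter. Without TET_WT, Olfr653, Olfr661 and Olfr493 still passed, and without DNMT_WT, 6 of those described above did. Just outside the threshold were Olfr566 (-0.31, limma adjusted p = 0.051), Olfr628 (-0.75, 0.052) and Olfr69 (-0.55, 0.053). The highest difference was that of Olfr297 in the cluster at chr7:86255655-86690447, 0.71 ± 0.29 (SE), which did not pass.

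The class I cluster was not uniform along its length. Split at the beta-globin genes, a division chosen after the values were seen and not tested, 40 tested receptors lie after them on the chromosome, of which 8 fell (median difference -0.33), and 51 lie before them, of which 0 fell (median -0.12). The contacts at 5 or more of baits after the globin genes numbered 63 (DNMT_KO), 85 (DNMT_WT), 78 (TET_KO) and 50 (TET_WT) in EpiLC, against 195, 82, 112 and 97 in ESC. Those of baits before them numbered 178, 177, 153 and 129 in EpiLC, against 178, 149, 181 and 131 in ESC. The DNMT_KO ESC column stands apart from the other columns after the globin genes and lies among them before. In the second cluster the counts were 55, 48, 33 and 34 in EpiLC, against 129, 75, 64 and 55 in ESC, lower in EpiLC in every line.

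**Figure D4:**
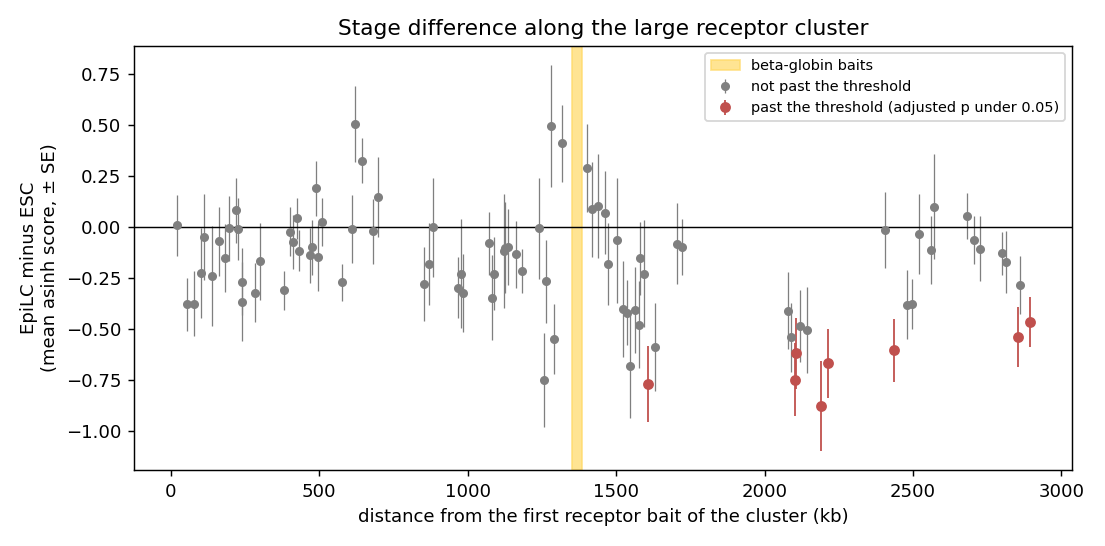
Stage difference (EpiLC minus ESC in mean asinh score, ± SE) of 91 tested receptor promoters of the class I cluster, by distance in kb from its first receptor bait. The 8 promoters past the threshold (red) all lie to the right of the beta-globin baits (yellow band).

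Among the other baits that lie between the receptors, 33 in all with receptor pseudogenes included, 1 of 30 tested fell and 0 rose (median -0.07). The one that fell was Trim30c, of a family of ubiquitin ligases, with a difference of -0.45 ± 0.13 (SE, limma adjusted p = 0.047). The beta-globin baits Hbb-b1, Hbb-bh2 and Hbb-bh1 were tested and did not pass (-0.17, -0.30 and -0.47), and Hbb-y had too few contacts. In the list of olfactory signalling and receptor choice genes, 14 of 25 had a tested promoter, and 0 fell and 0 rose (median 0.02, limma). The lowest were the channel subunit genes Cnga2 (-0.49) and Cnga4 (-0.29), with limma adjusted p = 0.14 and 0.084.

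Single contacts showed the same small shift. Of 1628 contacts tested, 2 fell (0.108% of all contacts in the table fell) and 0 rose (0.207% rose), by limma with adjustment over the whole table, and 252 (15.5%) had an unadjusted p under 0.05, against 16.6% of the table. The median difference in asinh score was -0.19 over the members' contacts, -0.23 over those to receptor baits, -0.03 over those to other promoters and -0.18 over those without a promoter, against -0.005 over the table. All 4 EpiLC scores lay below all 4 ESC scores in 64 contacts (3.93%), against 3.79% of the table, and above them in 23 (1.41%), against 4.85%.

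The contact of Olfr583 with Olfr633, which spans the beta-globin genes over 894.9 kb, scored 3.502 (DNMT_KO), 3.29 (DNMT_WT), 1.97 (TET_KO) and 4.08 (TET_WT) in EpiLC, against 5.76, 15.6, 11.1 and 7.96 in ESC. It was under 5 in every EpiLC column and over 5 in every ESC column (difference -1.12 ± 0.21 SE, limma adjusted p = 0.036). The contact of Olfr653 with a fragment at chr7:104197265-104197964, 381.2 kb away and without an annotated gene, scored 3.63, 2.15, 2.43 and 3.28 in EpiLC, against 8.08, 8.22, 5.93 and 7.47 in ESC. It was called in the ESC columns only (-0.99 ± 0.20 SE, limma adjusted p = 0.047). Neither passed with any 1 of the lines left out. Both contacts were listed through ESC columns alone. Such a listing favours a low EpiLC score, so these tests are no independent support for a fall.

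Counted at a score of 5 or more, the members had 430 (DNMT_KO), 461 (DNMT_WT), 416 (TET_KO) and 327 (TET_WT) contacts in EpiLC, against 663, 436, 489 and 422 in ESC. DNMT_WT was the line without a lower count in EpiLC. The means were 408.5 ± 57.5 in EpiLC and 502.5 ± 111 in ESC (SD, n = 4 lines), a ratio of 0.813, against 1.06 in the whole table. Contacts among receptor baits numbered 128, 135, 95 and 82 in EpiLC, against 197, 150, 150 and 124 in ESC, lower in each line (ratio 0.709). Those to other promoters numbered 46, 40, 48 and 43 in EpiLC, against 47, 40, 41 and 34 in ESC, where the stages overlap.

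**Figure D5:**
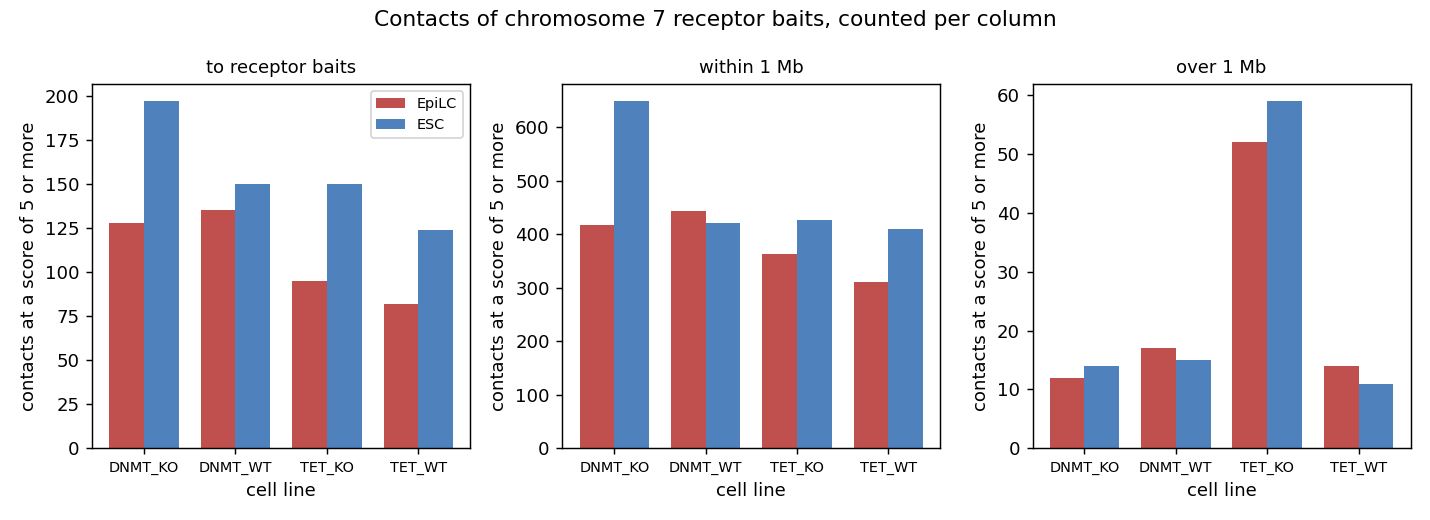
Bars count contacts of chromosome 7 receptor baits at a score of 5 or more in each line, EpiLC (red, left) and ESC (blue, right): to other receptor baits, within 1 Mb and over 1 Mb. DNMT_KO ESC is highest within 1 Mb (649), and TET_KO is highest over 1 Mb (52 in EpiLC and 59 in ESC).

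Not every target of the class I cluster followed this direction. Trim68, a ubiquitin ligase gene near the start of the cluster and the promoter outside the family with most receptor partners, was contacted by 32 receptor baits. Of these contacts 15 (DNMT_KO), 11 (DNMT_WT), 17 (TET_KO) and 10 (TET_WT) reached 5 in EpiLC, against 5, 7, 8 and 8 in ESC, and their median difference was 0.32. All 4 EpiLC counts exceeded all 4 ESC counts. The fragments of Gm8556, a predicted gene at chr7:102513080-102521018 singled out after the values were seen, had 74 contacts, of which 21, 27, 39 and 21 reached 5 in EpiLC, against 11, 11, 26 and 12 in ESC. Each line was higher in EpiLC, with overlap between TET_KO ESC and the EpiLC columns. These differences were not tested.

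The next promoters by number of receptor partners were Hbb-bh2 with 18, Trim21, which encodes a cytosolic antibody receptor, with 16, Ovch2 with 14, Nlrp14 with 10, Zfp941 with 6 and Nlrp10 with 5. Olfr625-ps1, Rbmxl2 and Tub had 3 each. The contacts with Hbb-bh2 at 5 or more numbered 2, 4, 4 and 7 in EpiLC, against 9, 2, 7 and 4 in ESC. These counts showed no order, while the median difference in asinh score was -0.35. Those with Trim21 numbered 3, 6, 5 and 5 in EpiLC, against 9, 5, 9 and 5 in ESC (median difference -0.24). The zinc-finger gene Zfp941 was the steady partner of the third cluster, with 5, 6, 6 and 5 of its 6 contacts at 5 or more in EpiLC, against 5, 5, 6 and 4 in ESC. The contact of Olfr623 with Trim21 was among the widest, at 1100.4 kb, with 3.39, 3.59, 6.27 and 3.21 in EpiLC, against 6.21, 2.15, 10.7 and 9.09 in ESC.

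The cluster nearest to the chromosome start had a different set of partners. Its 8 baits had 286 contacts, and 157 of these lay in Peg3, Peg3os, Usp29, Zim1, Zim2 or Zim3, genes of a neighbouring imprinted domain in which expression depends on the parent of origin. Usp29 alone overlapped 140. Of the 157 contacts, 47 (DNMT_KO), 60 (DNMT_WT), 34 (TET_KO) and 44 (TET_WT) reached 5 in EpiLC, against 61, 51, 24 and 80 in ESC, and 7 did so in all 8 columns. TET_KO was the lowest line at both stages, and the stages overlapped.

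Olfr1350, with 61 contacts, had the most of any member. Its contact with a Usp29 fragment at chr7:6931861-6932935, 363.4 kb away, scored 14.1 (DNMT_KO), 10.5 (DNMT_WT), 17.2 (TET_KO) and 15.4 (TET_WT) in EpiLC, against 13.9, 12.2, 10.1 and 9.12 in ESC. Olfr1344 reached the same fragment over 494.8 kb with 16.3, 10.8, 20.8 and 14.7 in EpiLC, against 14.9, 10.1, 10.2 and 12.4 in ESC. Both were called in all 8 columns and were chosen after their values were seen. With the test confined to contacts within 1 Mb, a contact of Olfr1350 with a fragment of Usp29 and Zim3 at chr7:6962939-6964087 passed as higher in EpiLC (9.04, 6.70, 9.56 and 11.8, against 1.28, 5.73, 4.89 and 2.61 in ESC). In that fit its difference was 0.99 ± 0.22 (SE, limma adjusted p = 0.045). Olfr473 with Olfr493 passed as lower there (-0.70, limma adjusted p = 0.048).

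In the other clusters the baits with the most contacts were Olfr69 with 30 (class I, where Olfr652 also had 30), Olfr523 with 18, Olfr714 with 17, Olfr521 with 13, and Olfr310 and Olfr291 with 4 each (Olfr304 and Olfr295, of the cluster of Olfr310, also had 4). Olfr69 lies just before the globin genes and led to receptor baits in 26 of its 30 contacts. Of these 30, 12 (DNMT_KO), 13 (DNMT_WT), 2 (TET_KO) and 8 (TET_WT) reached 5 in EpiLC, against 18, 15, 17 and 5 in ESC. TET_KO EpiLC was the lowest column. Of 7 trans contacts, 0 reached 5 in 4 or more columns.

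For the knock-outs each group has 1 column per stage, so nothing here was tested and no spread can be given. The 2 wild-type lines also differed, and the members' median of TET_WT minus DNMT_WT was -0.19 in EpiLC and -0.04 in ESC. DNMT_KO minus DNMT_WT had a median of -0.05 in EpiLC and 0.14 in ESC, with 68 and 95 of 150 members above 0. The same medians were -0.04 and 0.19 for receptor baits of chromosome 2 and -0.04 and 0.12 for those of other chromosomes. Over all promoters tested they were 0.009 and -0.003. A higher median in DNMT_KO ESC was thus not particular to the receptors of chromosome 7. TET_KO minus TET_WT had medians of 0.01 in EpiLC and 0.02 in ESC, with 76 and 82 of 150 above 0.

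A change of at least ln 2 on the asinh scale, a doubling for high scores, was counted next. In ESC, DNMT_KO was higher by that much than DNMT_WT in 11 members (7.33%, against 2.09% of all promoters) and lower in 7 (4.67%, against 2.14%). In EpiLC it was higher in 3 (2.00%, against 1.35%) and lower in 7 (4.67%, against 1.15%). TET_KO was higher than TET_WT in 5 members in ESC (3.33%, against 3.37%) and lower in 4 (2.67%, against 2.25%). In EpiLC it was higher in 14 (9.33%, against 3.60%) and lower in 7 (4.67%, against 2.54%). Between the wild-type lines, TET_WT was higher than DNMT_WT by that much in 5 members in EpiLC (3.33%, against 2.3%) and lower in 14 (9.33%, against 2.58%). In ESC it was higher in 4 (2.67%, against 2.16%) and lower in 7 (4.67%, against 1.95%), so counts of this size also arose without a knock-out.

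A contact was counted as gained at 5 or more in the knock-out and under 3 in its wild type, and as lost in the reverse case. In ESC, DNMT_KO gained 214 of 1628 contacts (13.1%, against 5.82% of the table) and lost 102 (6.27%, against 7.13%). In EpiLC it gained 87 (5.34%, against 4.75%) and lost 116 (7.13%, against 4.65%). TET_KO gained 164 in ESC (10.1%, against 6.93%) and lost 125 (7.68%, against 5.05%), and in EpiLC it gained 141 (8.66%, against 7.05%) and lost 91 (5.59%, against 5.65%). Counted in the same way, TET_WT had 79 contacts that DNMT_WT lacked in EpiLC (against 6.55% of the table) and lacked 150 (against 4.68%), and in ESC it had 130 (against 6.77%) and lacked 131 (against 7.12%). The members made up 0.797% of all contacts at 5 or more in the DNMT_KO ESC column and between 0.348% and 0.524% in the other 7. Of the members' 986 contacts called in 1 column only, 248 were called in DNMT_KO ESC, the most of any column. Among all baits, 14140 of 114698 such contacts were called in DNMT_KO ESC, and TET_KO EpiLC had the most (18956).

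Of 62 members with at least 10 contacts, 24 had the same sign at both stages in DNMT_KO minus DNMT_WT. Among these the 5 highest were Olfr566, Olfr632, Olfr547, Olfr685 and Olfr584, and the 5 lowest were Olfr642, Olfr66, Olfr523, Olfr648 and Olfr557. Some lay near 0 at 1 stage: Olfr584 (0.004) in EpiLC, and Olfr685 (0.016), Olfr648 (-0.018) and Olfr557 (-0.031) in ESC. Olfr566 had 2.46 in DNMT_KO against 2.22 in DNMT_WT in EpiLC, and 2.90 against 2.27 in ESC. Olfr642 had 1.08 in DNMT_KO against 1.53 in DNMT_WT in EpiLC, and 1.46 against 1.92 in ESC. Olfr642 lay lower in DNMT_KO by -0.46 at both stages, but by a mean of -0.19 with contacts over 1 Mb left out and -0.26 without contacts between receptor baits. Within 1 Mb, Olfr66, Olfr648 and Olfr557 lay above 0 instead.

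In TET_KO minus TET_WT, 37 of the 62 members with at least 10 contacts had the same sign at both stages. Among these the 5 highest were Olfr66, Olfr632, Olfr523, Olfr1346 and Olfr555, and the 5 lowest were Olfr1336, Olfr1347, Olfr645, Olfr651 and Olfr483. Olfr66 had 2.03 in TET_KO against 1.01 in TET_WT in EpiLC, and 1.59 against 1.07 in ESC, the largest mean difference (0.77). Without contacts over 1 Mb that mean was 0.26, and that of Olfr632 was 0.03 in place of 0.56. Olfr1336, which reaches the Peg3 and Usp29 domain, had 1.36 in TET_KO against 2.10 in TET_WT in EpiLC, and 1.58 against 2.09 in ESC. Of its 34 contacts, 6 reached 5 in TET_KO against 16 in TET_WT in EpiLC, and 5 against 20 in ESC.

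Among contacts over 1 Mb, TET_KO had the highest count at both stages. They numbered 12 (DNMT_KO), 17 (DNMT_WT), 52 (TET_KO) and 14 (TET_WT) in EpiLC, against 14, 15, 59 and 11 in ESC. At a score of 3 or more TET_KO had 69 in EpiLC (other lines at most 36) and 75 in ESC (at most 28), and at 10 or more it had 5 in EpiLC (at most 3) and 5 in ESC (at most 0). Of 148 listed contacts over 1 Mb, 132 belonged to the class I cluster and 73 were called in TET_KO columns only. Both TET_KO columns called 14 of the 148. Olfr66, Olfr631, Olfr632 and Olfr633, close together after the globin genes, reached back to the start of the cluster. Olfr632 with a fragment at chr7:102502771-102504497, 1435.9 kb away and chosen after its values were seen, scored 4.02, 0, 10.5 and 3.53 in EpiLC, against 1.99, 1.18, 14.4 and 0.865 in ESC. Both TET_KO columns lay above all others.

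High counts of long contacts in TET_KO were also seen elsewhere, though not in every set. For the receptor baits of chromosome 2 the contacts over 1 Mb numbered 38 (DNMT_KO), 31 (DNMT_WT), 52 (TET_KO) and 51 (TET_WT) in EpiLC, against 39, 35, 103 and 38 in ESC. There TET_KO stood apart in ESC, and in EpiLC it was level with TET_WT. For receptor baits of the other chromosomes they numbered 18, 25, 50 and 27 in EpiLC, against 12, 10, 37 and 24 in ESC. For the other baits of chromosome 7 they numbered 417, 442, 678 and 561 in EpiLC, against 83, 170, 424 and 285 in ESC. In both of these sets TET_KO was the highest line at both stages. In the whole table contacts over 1 Mb numbered 6014, 6507, 4953 and 4235 in EpiLC, against 3759, 1942, 3938 and 2636 in ESC. TET_KO was not the highest line in EpiLC there. The members' contacts reach no farther than 2372.4 kb, and in the matching class of 1 to 2.4 Mb the whole table had 2536, 2523, 3796 and 2981 in EpiLC, against 1045, 1232, 2908 and 1756 in ESC. In that class TET_KO was the highest line at both stages.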

How the data were processed

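The submitters' processing notes name Trim Galore 0.6.5, cutadapt 2.3 and the build GRCm38, while the aligner is not stated. Deposited scores were computed by the authors with CHiCAGO (version not stated), 1 column for each of 8 groups, with no scaling between columns stated. Rows with a missing score were left out of fits. Scores were transformed with asinh, quantile normalised between columns and averaged per bait (at least 3 contacts). The stage test used limma 3.58.1 in R 4.3.3 (lmFit, eBayes with a trend, line as block), with Benjamini-Hochberg adjustment at 0.05 over all 15677 promoters or all 244865 cis contacts. The fit was tested on simulated data. Tables were made with Python 3.11.15 and pandas 2.3.3. Genes were named by rank: promoters and contacts past the threshold, the 5 largest knock-out differences each way, the top bait of each cluster, the 5 strongest and 3 widest contacts, and the 10 promoters with most receptor partners. Members and lists were chosen with earlier results of these data known. Scaling, transform, minimum of contacts, distance, score thresholds, missing scores and lines were varied. The deposited distances, other values of the table made by the authors, served only to class contacts.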

Additional observations from a re-analysis of the deposited data

Results flagged for a closer look

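Within each stage, the 4 lines were searched for a value far from the others, in 74 groups of 4 values, and 10 were found. Chance flags about 1 in 20 such groups, but the distance classes overlap and promoters were named partly for their knock-out differences, so the number found is no comparison with chance. In counts at 5 or more, DNMT_KO ESC stood out with 649 contacts within 1 Mb (other lines 410 to 427) and with 105 contacts of 100 to 250 kb (71 to 75). TET_KO stood out over 1 Mb, with 52 contacts in EpiLC (other lines 12 to 17) and 59 in ESC (11 to 15).

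Among named promoters, DNMT_KO was high for Olfr661 in ESC (2.80, others 1.70 to 1.82) and for Olfr547 in EpiLC (1.86, others 1.54 to 1.56) and ESC (2.22, others 1.92 to 1.94). TET_KO was high for Olfr66 in ESC (1.59, others 0.970 to 1.07) and low for Olfr1347 in EpiLC (1.44, others 1.89 to 1.94). TET_WT was low for Olfr1346 in EpiLC (1.46, others 1.96 to 2.05).

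In 2 of 37 items both knock-out lines moved one way between stages and both wild-type lines the other, a difference that was not tested. For Olfr1336, EpiLC minus ESC was -0.12 in DNMT_KO and -0.23 in TET_KO, against 0.26 in DNMT_WT and 0.01 in TET_WT, so that knock-outs minus wild types came to -0.31. For contacts over 1 Mb it was -2 in DNMT_KO and -7 in TET_KO, against 2 in DNMT_WT and 3 in TET_WT, so that knock-outs minus wild types came to -7.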

How the results depend on the processing

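The median stage difference stayed below 0 under every alternative run; as a number of contacts at 5 or more it was -0.5. The number of promoters that fell was 9 of 150 (806 of 15677 in the whole series). It was 1 with no minimum of contacts (12), 14 of 59 with a minimum of 10 (832), 0 from numbers of contacts at 5 or more (0), 0 in the wild-type lines only (16), and 0 to 7 with 1 line left out (13 to 342). It was 7 without scaling (442) and 8 with missing scores as 0 (476), where 4 of the 9 did not pass. With no minimum of contacts none of the 9 named promoters passed, so the 1 counted there was another promoter. The cause was not tested, except that the fits on fewer lines use fewer columns. Promoters that rose numbered 1 of 150 without scaling (905 in the whole series) and 2 of 59 with a minimum of 10 (806). Without contacts between receptor baits, 1 of 128 rose (580 in the whole series). The whole-series numbers of the alternatives are counts and not shares. Contacts that fell numbered 1 without scaling and 0 with each line left out, and 1 rose within 1 Mb.

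The share of members above 0 in DNMT_KO minus DNMT_WT in ESC (63.3%) was 72.9% with a minimum of 10 contacts and 70.7% within 1 Mb. In TET_KO minus TET_WT in ESC (54.7%) it was 65.3% without scaling and 62.7% with a minimum of 10. Of contacts gained or lost, the share gained in DNMT_KO was 100% at 10 or more in EpiLC (2 contacts) and 76.7% in ESC against a score under 1. In TET_KO it was 80% in EpiLC and 100% in ESC at 10 or more (5 contacts each), and 72.8% in ESC against a score under 1. The mean of both stages in DNMT_KO minus DNMT_WT reversed within 1 Mb for Olfr66 (0.13), Olfr648 (0.10) and Olfr557 (0.052), and without contacts between receptor baits for Olfr648 (0.25). No paired analysis was possible by replicate number because the columns carry none, and the stage test pairs stages within each line. Depth per column is unknown, and members with few contacts have wide errors.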

Other observations

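Baits that are no receptor baits, with pseudogenes such as Olfr625-ps1 included, also list receptor fragments as other ends. They add 95 contacts from 39 baits. Of these 32 (DNMT_KO), 35 (DNMT_WT), 29 (TET_KO) and 31 (TET_WT) reached 5 in EpiLC, against 42, 28, 33 and 34 in ESC, with overlap between the stages. 4931431F19Rik listed the most (16), and Trim34a, of the Trim family of ubiquitin ligases, listed 6. Gm38627, a predicted gene at chr7:102505481-102506425 beside Gm8556, was listed by 15 receptor baits, with 7, 4, 7 and 1 contacts at 5 or more in EpiLC, against 1, 0, 3 and 1 in ESC (median difference 0.50). Olfr652 as an other end ran the opposite way except in DNMT_WT, with 4, 11, 1 and 2 in EpiLC, against 16, 6, 5 and 7 in ESC (median difference -0.44). Both were singled out after their values were seen.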
